A study of Drosophila melanogaster with 2 samples.

Results

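Of the 3469 toe peaks that were reproducible between replicates, 482 (13.9%) shared at least 1 base with the interval of another peak in the same list, and these overlapping peaks are described here. They were found from the deposited start and end positions alone, without reference to signal or genes. Chained together, they formed 238 multi-summit regions, of which 233 held 2 summits, 4 held 3 and 1 held 4. The other 2987 peaks overlapped no peak of the list and served for comparison.

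toe (twin of eyegone) encodes a transcription factor related to Pax proteins, with a paired-class homeodomain. Like its neighbour eyegone it is known for its part in eye growth and in patterning of the notum. In chromatin immunoprecipitation followed by sequencing (ChIP-seq), a summit is the base at which enrichment of fragments is greatest, and the peak interval is drawn around it. Summits that lie close together can share an interval or overlap, because each sonicated fragment is longer than the site that a protein occupies.

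The material was whole adult males, of unknown age, from a transgenic Drosophila melanogaster line that stably expresses toe with green fluorescent protein (GFP) fused to its C-terminus. Chromatin was sheared by sonication and recovered with an antibody against GFP. There was 1 group of 2 biological replicates, numbered 2 and 3, and the control experiment named in the labels was not analysed here. Since whole flies were used, the cell types behind a peak cannot be told apart, and 2 summits of a region may be occupied in the same cells or in different ones. Read counts are not part of the lists, and the depth of the libraries is unknown.

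The sequences of 6 regions are shown first, to give the scale of a multi-summit region. Each runs over 300 bases of the plus strand, centred between neighbouring summits, and comes from the RefSeq copy of the dm6 assembly. The first 3 belong to regions among those with the strongest signals, the fourth to a region with the smallest spacing seen, and the last to the region with 4 summits. The fifth was chosen after its sequence was seen. Capitals mark 8 short words searched on both strands, so a word can appear as its reverse complement. The DNA replication-related element is TATCGATA. Inside it lies the insulator core CGATA, which was also counted by itself. Core promoter motif 1 was searched as GGTCACACT. An E-box was searched as CAGCTG, the core that many homeodomains bind as TAATTA, and the GAGA repeat as GAGAG. Finally, the words ACAGTGG and AGTGTTG, to which no factor is assigned here, were taken up because an earlier look at these peaks had found them frequent.
CG9663 intron, chr2L:3302132-3302431, plus strand: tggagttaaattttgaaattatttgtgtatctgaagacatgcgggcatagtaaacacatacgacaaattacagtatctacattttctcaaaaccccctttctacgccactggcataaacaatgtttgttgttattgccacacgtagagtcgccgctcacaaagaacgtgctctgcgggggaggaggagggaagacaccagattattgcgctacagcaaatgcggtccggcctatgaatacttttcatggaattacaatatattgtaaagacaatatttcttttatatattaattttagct
CG3552 and CG3437 promoter, chr3L:9457753-9458052, plus strand: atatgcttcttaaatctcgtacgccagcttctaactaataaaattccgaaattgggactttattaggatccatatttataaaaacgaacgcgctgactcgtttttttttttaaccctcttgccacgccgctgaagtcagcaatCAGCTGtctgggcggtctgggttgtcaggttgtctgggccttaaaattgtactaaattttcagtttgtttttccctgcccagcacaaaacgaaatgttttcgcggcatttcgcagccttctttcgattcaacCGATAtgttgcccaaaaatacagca
CG6565 and Bdp1 promoter, chr2L:13373921-13374220, plus strand: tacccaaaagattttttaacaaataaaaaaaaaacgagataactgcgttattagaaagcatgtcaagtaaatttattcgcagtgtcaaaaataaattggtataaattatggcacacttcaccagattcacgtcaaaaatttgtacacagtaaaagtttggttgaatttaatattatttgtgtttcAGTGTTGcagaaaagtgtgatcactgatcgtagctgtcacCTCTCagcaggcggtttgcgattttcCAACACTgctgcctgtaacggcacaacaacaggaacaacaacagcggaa
Nup98-96 and mbc promoter, chr3R:23781523-23781822, plus strand: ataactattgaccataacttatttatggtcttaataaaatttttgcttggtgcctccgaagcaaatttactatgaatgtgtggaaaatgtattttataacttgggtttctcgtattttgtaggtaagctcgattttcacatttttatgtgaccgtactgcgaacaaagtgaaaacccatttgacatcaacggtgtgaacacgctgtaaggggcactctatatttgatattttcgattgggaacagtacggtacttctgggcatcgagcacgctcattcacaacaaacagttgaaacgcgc
Vps8 and sfl promoter, chr3L:6495293-6495592, plus strand: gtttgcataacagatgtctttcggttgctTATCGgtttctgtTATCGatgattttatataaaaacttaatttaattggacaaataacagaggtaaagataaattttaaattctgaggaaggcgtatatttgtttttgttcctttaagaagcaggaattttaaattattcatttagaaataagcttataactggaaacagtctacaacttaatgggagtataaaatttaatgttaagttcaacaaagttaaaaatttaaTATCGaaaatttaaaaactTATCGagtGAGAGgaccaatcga
tara intron, last 2 summits, chr3R:16236252-16236551, plus strand: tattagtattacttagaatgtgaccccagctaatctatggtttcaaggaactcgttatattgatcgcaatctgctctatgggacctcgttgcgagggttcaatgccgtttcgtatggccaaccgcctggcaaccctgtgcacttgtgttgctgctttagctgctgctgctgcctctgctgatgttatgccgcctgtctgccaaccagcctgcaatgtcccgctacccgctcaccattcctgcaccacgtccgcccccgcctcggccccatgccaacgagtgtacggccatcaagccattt

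In the CG9663 intron the summits lay at bases 48 and 252 of the sequence shown, and none of the 8 words occurred in it. At the promoter between CG3552 and CG3437 they lay at bases 50 and 250. CAGCTG stood between them and CGATA beyond the second. At the promoter of CG6565 and Bdp1, a subunit of the RNA polymerase III factor TFIIIB, the summits lay at bases 41 and 259, with GAGAG between them. AGTGTTG also occurred between them and again within 10 bases of the second summit. In the stretch at Nup98-96, which encodes nucleoporins, the summits lay at bases 51 and 250 and no word was found. At the promoter of Vps8 and sfl, CGATA occurred 4 times, each time on the side of a summit that faced away from the other summit. Such an arrangement, with CGATA within 45 bp outside both summits, was seen in 4 of the 188 regions of 2 summits that lay on arms other than 2R, from which no sequence is shown. The tara stretch held none of the words.

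Neighbouring summits in these regions were spaced narrowly around 200 bp. Over 244 neighbouring pairs the median spacing was 205 bp, with quartiles of 201 and 217 bp. The commonest spacing was 200 bp, found 27 times, and 155 pairs (63.5%, 95% Wilson interval 57.3 to 69.3%) lay at most 210 bp apart. At most 250 bp separated 220 pairs (90.2%). These intervals cover counting error only and treat pairs as independent.

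Both ends of that range have a bound in the files. No pair in any deposited dm6 list was closer than 199 bp, whether in the reproducible peaks, the pooled regions or either replicate, and 22 pairs of reproducible summits stood at exactly that distance. The farthest pair, at 391 bp in the eff region of 3 summits, lay near the width of an interval, which was 420 bp in 84.4% of the overlapping peaks and 82.9% of the others. The same crowding near the lower bound was present among the 30000 pooled regions, most of which are weak, where 1176 of 2937 distances under 400 bp were at most 210 bp. In the reproducible list 253 distances were under 400 bp, 26 lay from 400 to 599 bp and 90 from 600 to 799 bp. Whether the bound comes from the peak caller was not tested, since no source used here names the caller.

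**Figure D1:**
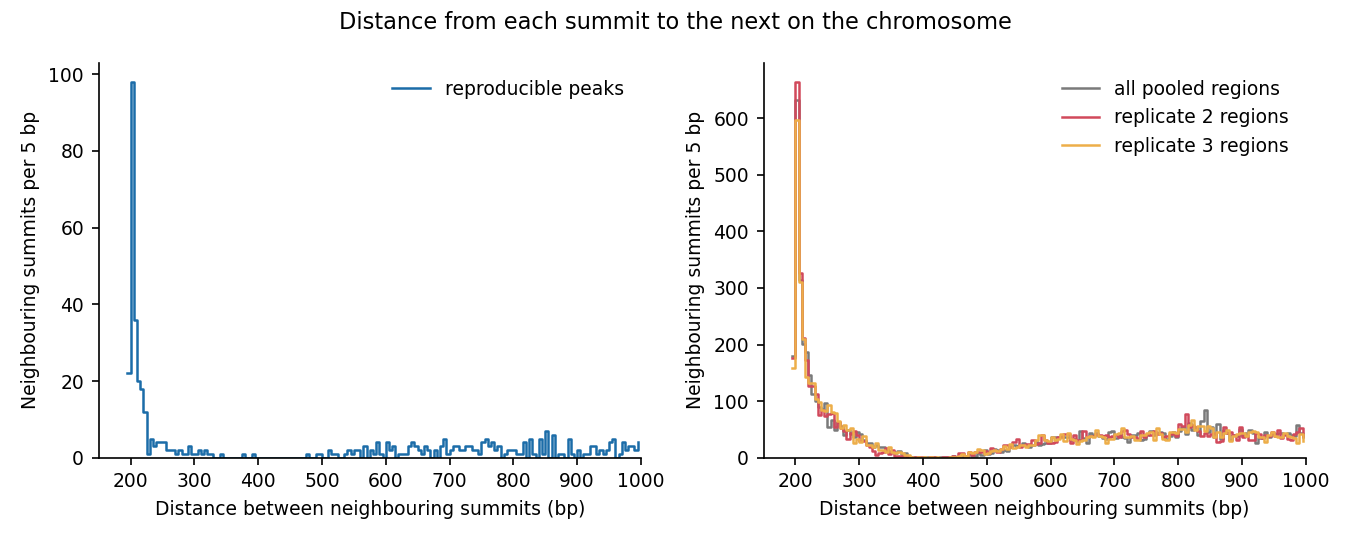
The number of neighbouring summits (vertical axis, per 5 bp) is plotted against the distance between them in bp, for the reproducible peaks on the left and for all 30000 regions of the pooled list and of each replicate on the right. In each list the counts begin at 199 bp, peak within the first 10 bp or so, and are sparse around 400 bp.

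Spacing was alike in the separate libraries. For regions whose 2 summits could each be matched within 100 bp to a summit of their own in a replicate, the median spacing was 205 bp in replicate 2 (186 regions) and 204.5 bp in replicate 3 (172 regions). Among the 3469 strongest regions of each replicate, taken without regard to the reproducible list, 490 (14.1%) of replicate 2 and 440 (12.7%) of replicate 3 overlapped another. In those overlapping regions the median spacing was 204 bp in each replicate. The replicates' lists carry the same lower bound of 199 bp, so these medians are not independent of it. Matching within 100 bp also ties the medians of 205 and 204.5 bp to the pooled spacing.

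The 5 closest pairs with the highest signal, all 199 bp apart, lay at promoters. They were those of row (a zinc-finger chromatin protein), of Nup98-96 and mbc (a DOCK-family activator of Rac), of CG46385, of Snx21 and aph-1 (a subunit of gamma-secretase), and of dsd and Tusp. At Nup98-96 the summits had signals of 439.6 and 112 in the pooled list, 269 and 57.4 in replicate 2, and 172 and 12.3 in replicate 3. The summit on the Nup98-96 side was the higher in all 3. The signal is the authors' own value on an unstated scale, so only values within a list are comparable.

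The 5 farthest 2-summit regions had highest signals from 67.0 to 104, beside a median of 166 for the highest summit of all 238 regions. They lay at spartin (340 bp), 14-3-3epsilon (a phosphoserine-binding adaptor, 317 bp), wun (a lipid phosphate phosphatase, 315 bp), Mad (the Smad protein of Dpp signalling, 305 bp) and CG6276 (304 bp). At spartin the summits had pooled signals of 104 and 81.4, 54.5 and 32.4 in replicate 2, and 42.7 and 42.9 in replicate 3, with spacings of 352 and 289 bp in the replicates. The order of the spartin summits was thus not the same in both libraries. The distance between the CG6276 summits was 297 bp in replicate 2 and 422 bp in replicate 3.

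The region with 4 summits lay in an intron of tara (taranis, a transcriptional co-regulator), from 16235528 to 16236712 on 3R. Its summits had pooled signals of 118, 63.7, 104 and 71.9 in order along the chromosome, the first of them 7078 bp from the nearest start site. In replicate 2 the values were 44.2, 61.1, 104 and 40.3, and the third summit was the highest. In replicate 3 they were 75.2 and 12.1 for the first and second and 49.1 for the fourth, while the third had no summit within 100 bp. A further intronic region of 2 summits was also nearest to tara, with pooled signals of 203 and 94.0. Its summits had 119 and 56.6 in replicate 2 and 90.3 and 35.3 in replicate 3, so the order was kept.

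The 4 regions with 3 summits lay at eff and jvl, at sm, at Ppa and at CG17233. eff encodes a ubiquitin-conjugating enzyme, sm an RNA-binding protein of the hnRNP family and Ppa an F-box protein. The strongest of their summits, at eff, had a pooled signal of 302 and values of 208 in replicate 2 and 89.7 in replicate 3. The lowest summit of that region, at 70.5, had a value of 58.4 in replicate 2 and was not found in replicate 3. All 3 Ppa summits fell in a 3′ untranslated region, more than 2 kb from a start site. Every summit was matched separately in replicate 2 but not replicate 3 at eff, in replicate 3 but not replicate 2 at Ppa, in both at sm and in neither at CG17233.

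Signal at overlapping peaks was near that of the others. The median was 111 for the 482 overlapping peaks and 101 for the 2987 others, a ratio of 1.10. The ratio was 1.11 in replicate 2 (66.6 against 60.2) and 1.06 in replicate 3 (49.3 against 46.7). The ratio fell to 1.01 when at least 100 bp of overlap was asked for, and to 0.996 in the stronger 50% of the list, so no direction is drawn from it. The highest overlapping signal was 1038, against 3278 among the others. A deposited q-value under 0.05 was held by 430 overlapping peaks (89.2%) and 2581 others (86.4%), beside 86.8% of the whole list.

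Overlapping peaks were found at every level of signal. With the list divided by signal into 10 groups of equal size, their share ran from 11.0 to 19.4%. It was 11.0% in the group with the lowest signal and 13.3% in that with the highest. Interval width did change with signal. All peaks of the lowest group were 420 bp wide, but 5.48% of the highest group were. Of the 253 neighbouring summits under 400 bp apart, 9 had intervals with no base in common.

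Just inside the threshold of 1 bp, the peaks at row shared 8 bp, those at AsnRS (asparaginyl-tRNA synthetase) 15 bp and those at Acbp1 and Piezo (a mechanosensitive channel) 19 bp. Just outside it, the neighbours at APP-BP1 were 11 bp apart, those at lncRNA:CR43626 16 bp and those at sea (a mitochondrial citrate carrier) 27 bp. Summits of those 3 outside pairs were 200, 205 and 205 bp apart, so they were spaced as the members were. In all, 10 neighbouring peaks were separated by under 100 bp and 34 pairs shared under 100 bp.

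Signal within a region was described by the ratio of its highest to its lowest summit, which cannot fall below 1. Signals of the whole list are themselves spread, with quartiles of 74.2 and 175. How far unrelated peaks would differ was not tested, so the ratios are a description only. The highest summit had a median signal of 166 and the lowest one of 83.3, and the median ratio within a region was 1.74, with quartiles of 1.35 and 2.52. The ratio was under 1.5 in 88 regions, under 2 in 145 (60.9%) and 5 or more in 8. Compared by their highest summit, regions had a median 1.64 times that of the non-overlapping peaks, but this takes the maximum of several values for one side only. In the replicates the median ratio of the 2 summits was 2.00 in replicate 2 and 2.14 in replicate 3. These cover only the 186 and 172 regions of 2 summits matched separately there, so they are not set against 1.74. Every summit was matched in both replicates in 44.3% of regions with a pooled ratio under 1.5. The share was 68.5% from 1.5 to under 2.5 and 62.3% above that.

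**Figure D2:**
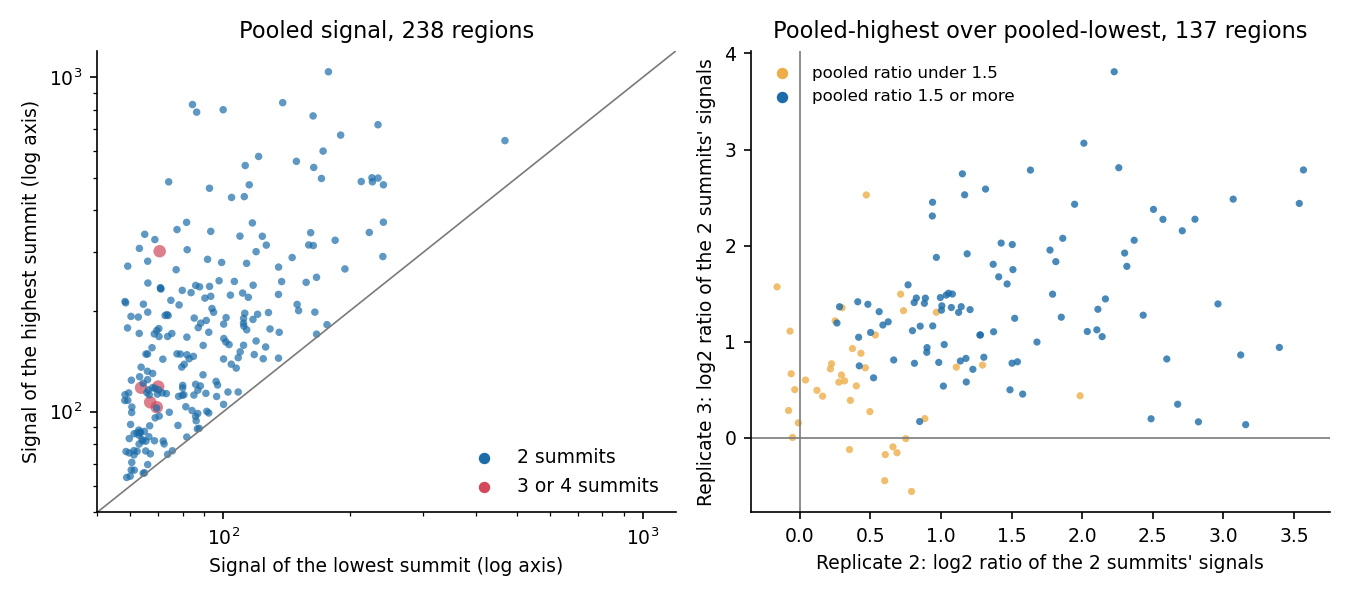
Left, the signal of the highest summit against that of the lowest for each of 238 regions on logarithmic axes, with the diagonal marking equal signals. Right, for 137 regions of 2 summits matched in both replicates, the log2 ratio of the summit that is higher in the pooled list to the other, in replicate 2 and replicate 3. Points below or left of the grey zero lines, where the order is turned in a replicate, all belong to regions with a pooled ratio under 1.5.

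Among the 10 regions with the highest summits were those at CG9663, CG3552 and CG6565. In the CG9663 intron (2L, 3301995 to 3302589) the pooled signals were 1038 and 178, with 615 and 94.1 in replicate 2 and 410.5 and 92.2 in replicate 3. At CG3552 and CG3437 (3L, 9457632 to 9458211) they were 839 and 139, with 499.8 and 71.8 in replicate 2 and 334 and 69.1 in replicate 3. In both regions the same summit was several times higher in each library. At CG6565 and Bdp1 (2L, 13373754 to 13374210) the pooled signals were 799.6 and 99.9. There the lower summit was not found in replicate 2, where the higher had 473, and replicate 3 had 322 and 190.1.

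Among the other regions with the highest summits were those at HmgZ (a high mobility group protein), CG32022 and CG6511, Fur1 (a furin protease) and Vps33B, Adf1 (a transcription factor), Rme-8 (an endocytic DnaJ protein), Drat and lncRNA:CR44761. Their highest summits ran from 601 to 829. HmgZ had the largest ratio, 9.81 in the pooled list, but 3.46 in replicate 2 (467 and 135) and 2.82 in replicate 3 (358 and 127). Drat was the most even of these, at 647 and 469, with 358 and 258 in replicate 2 but 295 and 51.2 in replicate 3. In 6 regions, those at CG9663, HmgZ, CG32022, Fur1, Rme-8 and lncRNA:CR44761, both peaks had the same start and end and differed only in the summit.

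The 5 most even regions had signals below the median of the list. They lay at CG11825, CG10543, aop (the ETS repressor Yan), ro (the homeobox protein Rough) with T48, and ago (the F-box protein Archipelago), with pooled ratios from 1.01 to 1.02 and highest signals from 65.5 to 89.2. At ro the pooled signals were 65.5 and 64.4. No summit was found there in replicate 2, and in replicate 3 the lower one alone was found, with 25.8. None of the 5 regions had each summit matched separately in both replicates.

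Both replicates held every summit of a region in 138 of 238 cases (58.0%, 95% Wilson interval 51.6 to 64.1%). Replicate 2 held every summit in 189 regions (79.4%) and replicate 3 in 174 (73.1%), both numbers including those 138. In 13 regions neither replicate did. Where 1 summit of a pair was found in replicate 2, it was the one with the higher pooled signal in 21 of 43 regions, and in replicate 3 in 31 of 59. Single summits of overlapping peaks were matched less often, at 89.0% in replicate 2 and 86.1% in replicate 3, beside 96.5 and 94.3% for the non-overlapping peaks. All these peaks were selected for reproducibility between the same libraries, so the shares are not independent evidence of it.

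The order of the summits was the same in both replicates in 123 of the 137 regions of 2 summits that were matched in both (89.8%, 95% Wilson interval 83.6 to 93.8%). It was the same in 25 of 39 regions with a pooled ratio under 1.5, in 60 of 60 with a ratio from 1.5 to under 2.5 and in 38 of 38 above that. The pooled signal was made from both replicates, which ties these counts together. Across the 137 regions, the log2 ratios of the replicates had a Spearman rho of 0.411, given as a description across regions.

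Closely spaced summits also occurred beneath peaks that count as non-overlapping. Of these 2987 peaks, 357 (11.95%) held 2 or more summits of replicate 2 and 298 (9.98%) held 2 or more of replicate 3. In the pooled list 556 (18.6%) overlapped a weaker region that did not reach the reproducible list, whose lowest signal was 58.2. Likewise, 15 of the 238 regions overlapped further weaker regions. The number of summits per region therefore depends on where the reproducible list ends.

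Most overlapping peaks lay near the start of a gene. An annotated start site was within 500 bp of the summit in 352 of 482 (73.0%, 95% Wilson interval 68.9 to 76.8%), against 1937 of 2987 others (64.8%, 63.1 to 66.5%) and 66.0% of the whole list. Introns held 19.7% of overlapping summits and 24.97% of the others, and intergenic sequence 5.39% and 7.83%. No overlapping summit fell in a coding exon, beside 8 of the others (0.268%) and 0.231% of the whole list. The upper Wilson bound for 0 of 482 is 0.791%, so no difference is drawn from this. Summits of 1 region share their location and are not independent. Counted once by its highest summit, a region was near a start site in 73.1% of cases. The order of the groups rested on the window. Within 200 bp of a start site lay 46.7% of overlapping and 50.5% of the other summits, and within 1000 bp 82.6 and 76.0%.

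Promoter regions were often shared by neighbouring genes. In 166 regions (69.7%) every summit was near a start site, in 17 some were and in 55 (23.1%) none was. In each of the 166 the summits had a gene in common. Their 500 bp windows overlap widely, so a shared gene is nearly given by the choice of these regions. In 98 of them start sites on both strands lay within 500 bp of any of the summits, a wider stretch than around a single peak. Among promoter summits, 51.7% of the overlapping and 37.3% of the other peaks had start sites on both strands within 500 bp (39.5% of all). Start sites of more than 1 gene were that near in 55.4 and 39.7% (42.1% of all). Summits of 1 region have largely the same window, so a promoter can be counted more than once among the overlapping ones. A start site stood between the outer summits in 44 regions (18.5%), and start sites of more than 1 gene in 4, so most regions did not straddle one.

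Where start sites lay on 1 strand only, both summits were mostly upstream, as were most non-overlapping summits. In 68 such regions of 2 summits, the summit farther upstream lay at a median of −321 bp from the nearest start site and the other at −112.5 bp. The 1215 non-overlapping peaks of this kind lay at a median of −106 bp, and 972 of them (80.0%) were upstream. Both summits were upstream in 54 regions and both downstream in 7, and the start site lay between them in 7. The upstream summit was the higher in 34 of 68, and the highest summits had a median position of −211.5 bp against −208 bp for the lowest.

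**Figure D3:**
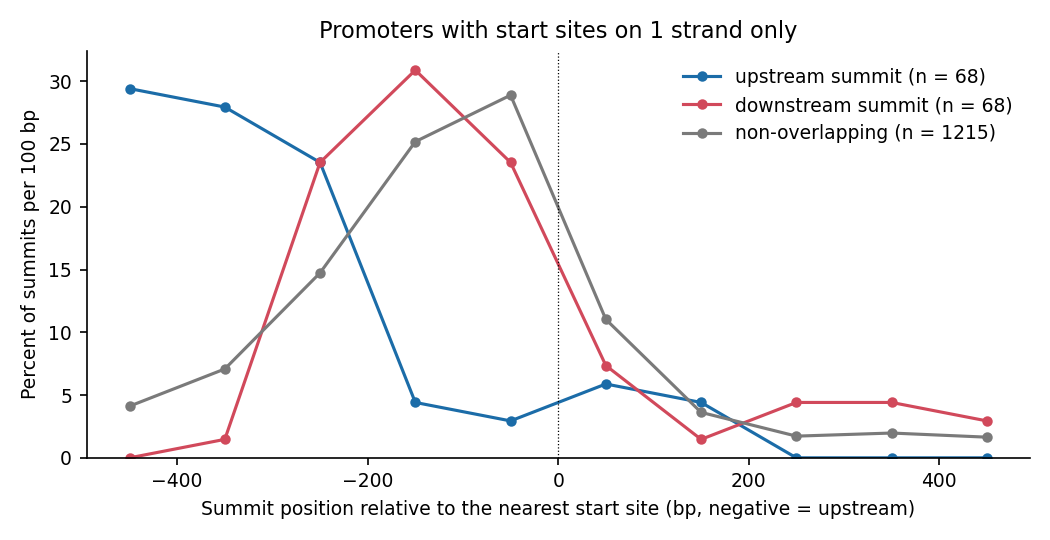
The percentage of summits per 100 bp is plotted against position relative to the nearest start site, in bp with negative values upstream, for promoters with start sites on 1 strand only. Of the 68 regions of 2 summits, the downstream summits lie near the 1215 non-overlapping summits (medians −112.5 and −106 bp) and the upstream ones, which are defined by that order, farther out (median −321 bp).

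A start site of 278 protein-coding genes, of 13968 (1.99%), lay within 500 bp of an overlapping summit, and 18 of these were also near a non-overlapping one. For non-overlapping peaks the number was 2441 (17.5%). Of 93 cytoplasmic ribosomal protein genes, 5 were near overlapping and 50 near non-overlapping peaks. The 5 were RpL10Ab, RpL27A, RpL34b, RpS3A and RpS5a, with highest signals of 119, 144, 487, 272 and 180.2 in that order. RpL34b was the most uneven of them, with a ratio of 6.57.

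Of 73 mitochondrial ribosomal protein genes, 4 (mRpL17, mRpL2, mRpL54 and mRpS22) were near overlapping and 26 near non-overlapping peaks. Among 48 homeobox and homeotic genes 1, ro, was near overlapping peaks, and 5 near others. Of 25 genes for the GAGA factor, BTB and architectural proteins, row alone was near overlapping peaks and 12 near others, and of 15 circadian clock genes tim alone, with 6 near others. tim had summits at 84.0 and 81.8, spaced 230 bp apart. These counts cover start sites within 500 bp only. Farther from a start site, overlapping regions were nearest to Trl, psq and fru of the GAGA factor list and to Pdp1 of the clock list. None of 19 retinal determination and Pax genes, the field in which toe is best known, and none of 26 ecdysone response genes was near an overlapping peak, against 5 and 10 near others. With 1.99% of all protein-coding genes near an overlapping peak, counts of this size give no ground to set a list apart.

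Some genes carried several regions. The 238 regions had 224 genes nearest to their highest summit, and 14 of them appeared for 2 regions. Among these were spen (a corepressor with RNA-binding domains), spi (the EGF receptor ligand Spitz), osa (a subunit of the Brahma remodelling complex), Pdp1 (a bZIP clock regulator) and Mnt (a partner of Max). The regions at spen had pooled signals of 368 and 81.7 in the 5′ untranslated region and of 537 and 164 in an intron. In replicate 2 they were 225 and 37.8, and 254 and 74.5. In replicate 3 they were 138 and 28.5, and 291 and 75.2, so the order of summits was the same throughout. These genes were picked out after their values were seen.

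By chromosome, the largest numbers of overlapping peaks were on 3R with 143 (29.7%, against 25.8% of the others) and 2L with 98 (20.3 against 17.8%). Arm 2R had 96 (19.9 against 17.4%), 3L 77 (16.0 against 21.4%), X 66 (13.7 against 17.2%) and the small chromosome 4 had 2. Peaks of a region are counted together here, so these shares rest on fewer independent regions than peaks.

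Base composition set the stretch between the summits apart from its flanks. Over 233 regions of 2 summits, the median share of G and C was 31.9% between the summits and 39.5% in the 100 bp outside them. It was lower between the summits than the mean of the outer sides in 177 regions (76.0%), and lower than both outer sides in 128 (54.9%), while 26 (11.2%) had a higher share than both. Non-overlapping peaks also had less G and C at the centre. Their median was 36.8% within 100 bp of the summit and 40.5% in the next 100 bp on each side, and 61.2% of them had the lower share at the centre. The dip was present near start sites (129 of 164 regions with both summits near one) and away from them (38 of 53).

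Within the 300 bases shown, 4 of the 6 sequences had more G and C between the summits than outside them. Their outer parts are shorter than the 100 bp measured above, so these shares are not like for like with the dip. The tara region, with 4 summits, was not part of that measurement. There, the bases before the first summit shown lie between summits of the same region. The CG9663 intron had 45.8% G and C between its summits and 24.2% outside them, the CG3552 promoter 43.7 and 38.4%, the tara intron 56.4 and 50% and the Nup98-96 promoter 38.4 and 37.0%. The shares were nearly equal at CG6565, at 35.5 and 35.8%. At Vps8, which was chosen after its sequence was seen, they were 23.7 and 34.0%.

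The dip was also measured from each library's own summits, where these were matched to the pooled ones. In the 100 bp on the inner side of each summit, facing its partner, the mean share of G and C was 33.7%, and on the outer side 39.8%. With the summits of replicate 2 these were 33.6 and 39.6%, and with those of replicate 3 33.7 and 39.5%. Over all overlapping peaks, the nearest summit lay a median of 16 bp away in replicate 2 and 20 bp in replicate 3. Largely the same bases were thus measured again, so the likeness is not independent evidence. How far base composition moves sequencing coverage, and with it the summits, was not tested.

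**Figure D4:**
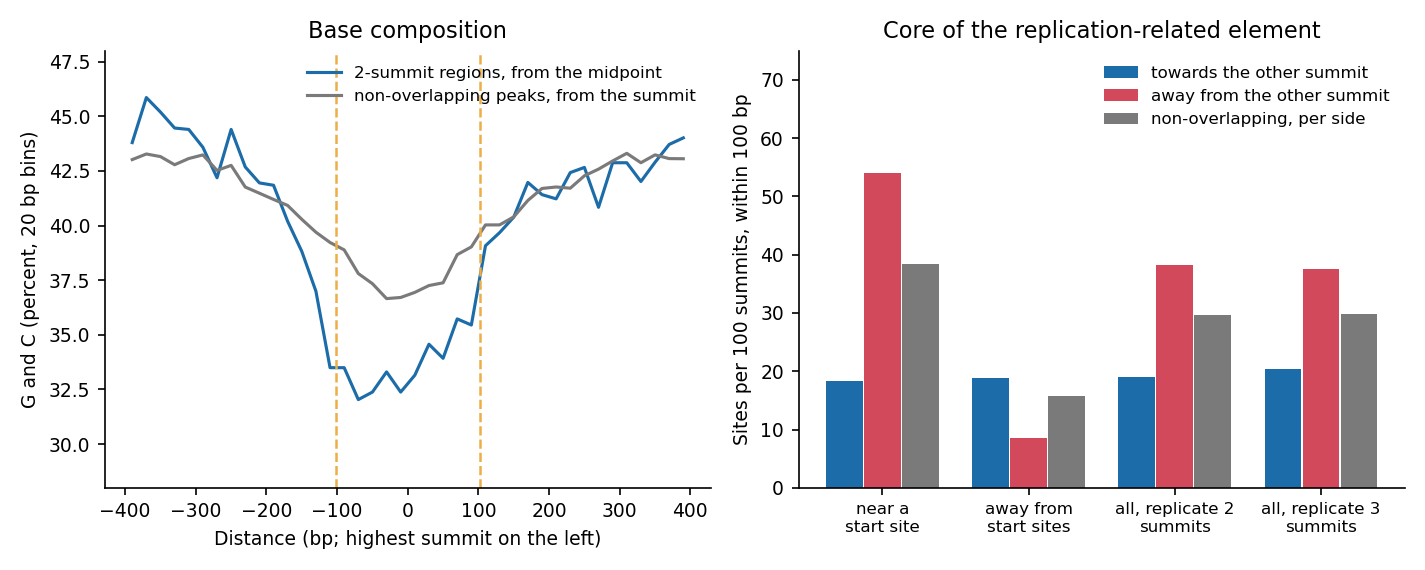
Left, mean percentage of G and C in 20 bp bins along 233 regions of 2 summits, centred on the midpoint with the highest summit on the left, and along non-overlapping peaks centred on their summit. Dashed lines mark summits at the median spacing. Right, sites of the core CGATA per 100 summits, within 100 bp, on the side towards the other summit, on the side away from it, and per side of non-overlapping summits. Near start sites the outer side holds 54.0 and the inner side 18.3.

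Within 50 bp of the summit, most of the short words were about as common at overlapping summits as at the others. CGATA occurred at 20.5% of overlapping and 19.99% of non-overlapping summits (20.1% of all), and GAGAG at 11.6 and 12.2% (12.1% of all). TAATTA occurred at 6.85% and 10.01% (9.57% of all). TATCGATA was at 2.28 and 2.81% (2.74%), CAGCTG at 5.60 and 4.75% (4.87%) and AGTGTTG at 3.11 and 4.49% (4.30%). ACAGTGG was at 2.90 and 3.21% (3.17%), and within regions at 2 of 238 highest summits and 12 of 244 other summits. GGTCACACT was at none of 482 overlapping summits and at 0.770% of the others (0.663% of all). A count of 0 allows a share of up to 0.622% if 3 counts are taken as the limit, and of up to 0.791% by the Wilson interval. The 0.770% of the others lies between these 2 limits, so no difference is drawn from this count. CGATA was at each summit of 13 regions and at some but not all summits of 73, and GAGAG at each summit of 7 and at some of 42. Each of the other words was at every summit of at most 1 region.

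The inner and outer sides of the summits were compared after the data were seen. Within 100 bp of 466 summits, CGATA had 88 sites on the inner side and 191 on the outer side, or 18.9 and 41.0 per 100 summits, beside 30.4 per side of non-overlapping summits. With the summits of replicate 2 the values were 19.1 and 38.2, and with those of replicate 3 20.3 and 37.5. Replicate summits here and below are those matched to the pooled ones, so their counts are not independent of the pooled counts. TATCGATA, which contains CGATA, had 3 inner and 21 outer sites, and CAGCTG 14 and 40. TATCGATA had 5 and 13 with the summits of replicate 2 and 2 and 12 with those of replicate 3, and CAGCTG 8 and 29, and 9 and 27. For ACAGTGG there were 10 inner and 21 outer sites, 7 and 19 with replicate 2 and 8 and 11 with replicate 3. For AGTGTTG there were 14 and 21, with 8 and 19 in replicate 2 and 10 and 17 in replicate 3. Sites of GGTCACACT were few, at 1 and 7, with 1 and 5 in replicate 2 and 0 and 6 in replicate 3. Most of the words searched thus had more sites on the outer side. TAATTA had 46 inner and 34 outer sites, but 32 and 30 with replicate 2 and 40 and 28 with replicate 3. GAGAG, where a longer repeat counts several times, kept no order between the sides. It had 135 inner and 113 outer sites with the pooled summits, 89 and 89 with those of replicate 2, and 78 and 92 with those of replicate 3. In the next 100 bp outside, GAGAG had 44.2 sites per 100 summits, beside 32.7 at the same distance from non-overlapping ones, and 48.9 with the summits of replicate 2 and 40.1 with those of replicate 3. The inner side was also lower in G and C, and the part of base composition in these counts was not tested.

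The outer CGATA sites lay mostly at promoters. In regions with both summits near a start site there were 60 inner and 177 outer sites, or 18.3 and 54.0 per 100 summits, beside 38.4 per side of non-overlapping promoter summits. In the 53 regions with no summit near a start site the numbers were 20 and 9. These few sites are not set against non-overlapping peaks away from start sites. Several sites often came from the same region, as at Vps8. Counted by region, 80 of 164 promoter regions (48.8%, 95% Wilson interval 41.2 to 56.4%) had CGATA within 100 bp outside a summit, and 50 (30.5%, 24.0 to 37.9%) between the summits. It stood outside both summits in 22 of these regions and in none of the 53 regions away from start sites, for which the upper Wilson bound is 6.76% and the limit from 3 counts 5.66%. A match of letters is a description and does not show which protein was bound.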

How the data were processed

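Deposited peak lists on dm6 were used, with the reproducible dm3 list for counts only. Per the files' notes, the authors called regions on each replicate and on pooled alignments against a control, and derived reproducible peaks by the irreproducible discovery rate. No source used here gives the aligner, the caller or their versions. The deposited signal is the authors' value on an unstated scale, and was compared within lists only. The deposited −log10 q-value column, read by the usual layout of this file type, served to count peaks with a q-value under 0.05. Depth is unknown.

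Overlapping peaks shared at least 1 bp and were chained into regions. A replicate summit within 100 bp was matched. Start sites came from Ensembl release 115 (BDGP 6.54) and sequence from RefSeq. Coordinates count from 1. Intervals are 95% Wilson intervals and cover counting only. With 1 group and members sharing libraries, nothing was tested. Code for overlap, chaining and matching was checked on simulated intervals. Python 3.11.15, pandas 2.3.3, NumPy 2.4.6, SciPy 1.17.1 and matplotlib 3.10.9 were used.

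Members and gene lists were chosen with earlier results of these data known. The symbols Pzg, Zw5, Eip71CD and Hr46 matched no gene and were left out. Named regions were those with the most summits, the 10 highest, the 5 closest and 5 farthest, the 5 most even and most uneven, the 3 on either side of the threshold, and those touching a gene list. Regions with 3 summits, identical intervals or a gene in common were added after the data were seen.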

Additional observations from a re-analysis of the deposited data

How the results depend on the processing

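No paired analysis was possible because the labels give 1 group. Up to 9 alternatives were run for each result. The number of overlapping peaks fell from 482 to 270 (135 regions) when at least 50% of the shorter peak had to overlap, and to 146 (73 regions) in the stronger 50% of the list, which holds fewer peaks. It stayed within 1.5 times of 482 in the other settings, among them each replicate's own strongest regions (440 and 490 peaks, 218 and 242 regions). The median spacing moved from 205 bp to 202 and 204 bp in those same settings. The signal ratio of 1.10 became 1.01 with an overlap of at least 100 bp, 1.04 with a q-value under 0.05, 1.03 on dm3 and 1.64 by each region's highest summit, and turned to 0.996 in the stronger 50%. It was 1.06 without replicate 2 and 1.11 without replicate 3. The cause was not tested. The promoter share became 80.1% in the stronger 50%, 46.7% with a window of 200 bp and 82.6% with 1000 bp. The share of regions with every summit in both replicates became 75.3% in the stronger 50% and 45.4% with matching within 50 bp. Counted in replicate 3 whatever replicate 2 held, it was 73.1%, and in replicate 2 whatever replicate 3 held, 79.4%. The share with the same order in both replicates became 94.6% with the 50% overlap, 96.4% in the stronger 50% and 94.4% with matching within 50 bp. The median ratio of summits became 1.92 with the 50% overlap, and 1.99 and 2.15 from 1 replicate alone, over the regions matched there. Unknown depth limits how far a summit missing from a replicate can be read.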
